A study of Schizosaccharomyces pombe with 8 samples.

Results

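The mitochondrial genome of fission yeast (Schizosaccharomyces pombe) was represented in the deposited count table by 36 gene IDs of 7000 in all. They were taken as every row whose ID starts with SPMIT. Of these, 11 were protein-coding IDs (SPMIT.01 to SPMIT.11) and 25 were transfer RNA (tRNA) IDs, which spell out the amino acid that the tRNA carries. No ribosomal RNA ID was among them, and mitochondrial ribosomal RNA was not analysed here. All 36 IDs passed the filter on low counts that was applied to the whole table.

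The table held ribosomal RNA-depleted total RNA from 4 strains grown in rich YES medium to mid-log phase, with 2 libraries per strain and 8 in all. Every strain was h- and carried Rpb3-3HA::hphMX6, an epitope-tagged subunit of RNA polymerase II. The reference strain (WT) had no further allele. The mutants were rpb1 S2A::kanMX6, rpb1 S7A::kanMX6 and rpb1 Y1F::kanMX6, in which serine 2 or serine 7 became alanine or tyrosine 1 became phenylalanine in the repeats of the C-terminal domain of Rpb1, the largest subunit of RNA polymerase II. WT lacked the kanMX6 marker, so an effect of the marker and one of the substitution cannot be told apart. The substitutions themselves are not visible in counts per gene.

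The mitochondrial genome is not transcribed by RNA polymerase II. A separate single-subunit polymerase, Rpo41, copies it together with the factor Mtf1, both of them products of nuclear genes. The long primary transcripts are cut at the tRNAs that lie between the other genes, which frees the messenger, ribosomal and transfer RNAs used by the mitochondrial ribosome. The messenger RNAs encode core subunits of the respiratory chain and of ATP synthase and a protein of the mitochondrial ribosome.

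RefSeq's annotation of the ASM294v3 assembly, which is not the build behind the counts, places 39 genes on the mitochondrial genome, all 39 on the same strand. Its 11 protein-coding genes are cox1, cox2, cox3, cob, atp6, atp8, atp9, rps3 and 3 genes that lie inside introns of cox1 and cob. It also has 25 tRNA genes, 2 ribosomal RNA genes and rnpB, the RNA of mitochondrial RNase P. Which of these genes each of SPMIT.01 to SPMIT.11 stands for is stated neither in the files nor in the labels, and the protein-coding IDs are named by ID only. The number of tRNA IDs equalled the number of RefSeq tRNA genes for each of the 20 amino acids. For 15 of the amino acids there is 1 gene, and for the other 5 (leucine, isoleucine, serine, arginine and methionine) there are 2, which the IDs do not resolve. Intron-encoded genes share reads with the unspliced transcript of their host gene, and the files do not say how such reads were assigned.

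Depth ranged from 13391705 counts (Y1F replicate 1) to 23081870 (S7A replicate 2). Counts of single libraries ran from 42 to 202930 at the protein-coding IDs and from 10 to 2855 at the tRNA IDs, so the tRNA values carry the larger counting error. The WT libraries stood apart from each other at the mitochondrial IDs. In WT replicate 2, 34 of the 36 IDs were higher than in WT replicate 1, with a median ratio of 1.31, while the median ratio over all 6243 genes tested was 1.00. The same median ratio of replicate 2 to replicate 1 was 0.955 for S2A, 0.972 for S7A and 1.05 for Y1F. Values without 1 of the WT libraries therefore stand beside the results below. Nothing in the labels states whether both libraries of a strain were grown separately. The p-values then reflect only how far these libraries lie from each other, which may be technical.

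The mitochondrial IDs together took a larger share of the counts in S2A and S7A than in WT. Their share was 2.10% and 2.70% in the WT libraries, 3.57% and 3.46% in S2A, 3.65% and 3.55% in S7A, and 2.67% and 2.86% in Y1F. All 4 S2A and S7A libraries lay above the 4 WT and Y1F libraries, and WT and Y1F overlapped. The ratio of the strain mean to the WT mean was 1.46 for S2A, 1.5 for S7A and 1.15 for Y1F. An exact permutation test over the 2520 assignments of the 8 libraries to 4 strains gave p = 0.0476 for this share (adjusted p = 0.0476 over 3 shares), where the smallest possible p was 0.00952. In the same permutation test p was 0.0667 without WT replicate 1, 0.0571 without S2A replicate 2, 0.0667 without S7A replicate 1, 0.0571 without S7A replicate 2 and 0.0762 without Y1F replicate 2. A test of 2 libraries against 2 cannot go below 0.333, so single pairs of strains were compared only in the fit of all genes. In bulk RNA, more mitochondria per cell, more RNA per mitochondrion and less RNA from the nuclear genes cannot be told apart.

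The tRNA IDs made up a small part of these counts, and their ratios to WT were larger than those of the protein-coding IDs in S2A and S7A. Their share was 0.0364% and 0.0498% in WT, 0.0802% and 0.0743% in S2A, 0.0984% and 0.0891% in S7A, and 0.0448% and 0.0468% in Y1F. Both S7A libraries lay above both S2A libraries, which lay above the other 4. The ratio to the WT mean was 1.79 for S2A, 2.18 for S7A and 1.06 for Y1F, and the exact permutation test over strains gave p = 0.0286 (adjusted p = 0.0476). The protein-coding share had ratios of 1.46, 1.49 and 1.15 (exact permutation p = 0.0476, adjusted p = 0.0476). Set against each other within a library, tRNA counts per 1000 protein-coding counts were 17.6 and 18.8 in WT, 23.0 and 22 in S2A, 27.7 and 25.7 in S7A, and 17.1 and 16.6 in Y1F. The 4 strains did not overlap in this ratio, with S7A highest and Y1F lowest. The ratio was chosen after the values were seen and was not tested. It does not depend on how the libraries are scaled, and the WT libraries lay close to each other in it.

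**Figure D1:**
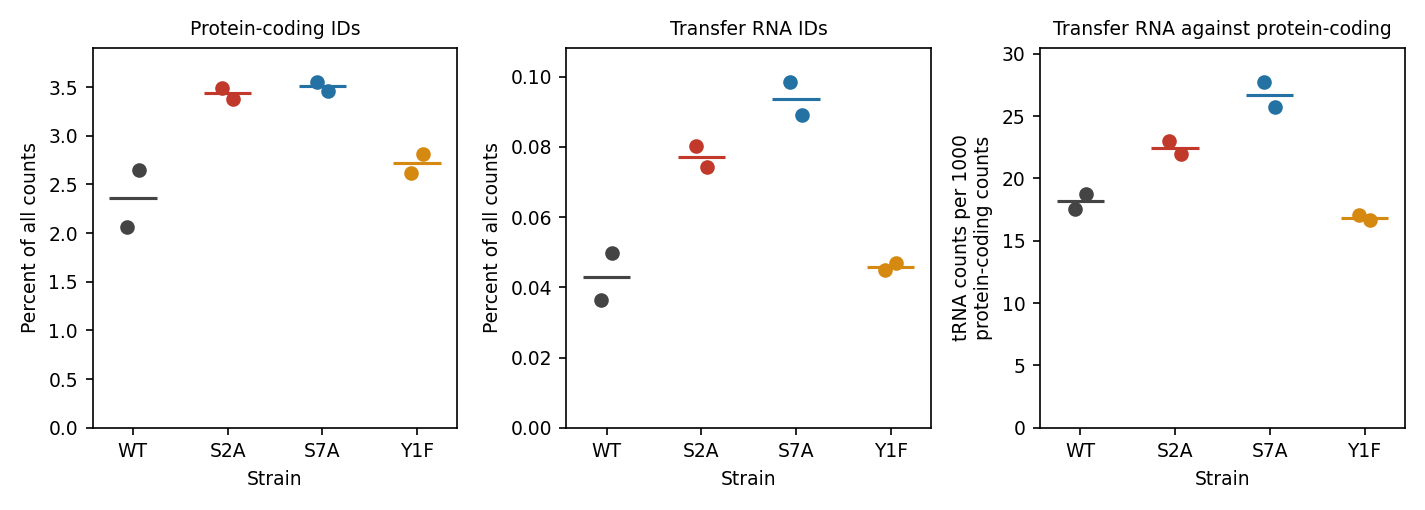
Percent of all counts at the 11 protein-coding IDs (left) and the 25 tRNA IDs (middle), and tRNA counts per 1000 protein-coding counts (right), for each library (points) with the strain mean (line). The WT libraries lie apart in the first 2 panels (tRNA share 0.0364% and 0.0498%) and close together in the right panel (17.6 and 18.8), where S7A is highest.

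Nearly every mitochondrial ID was higher in S2A and in S7A than in WT. In the edgeR fit of all genes, 34 of the 36 IDs were called higher in S2A and 0 lower (0 lower also at an unadjusted p under 0.05 and by DESeq2). Of the 6243 genes tested, 28.8% were called higher and 26.6% lower. In S7A all 36 were called higher and 0 lower (0 again at an unadjusted p under 0.05 and by DESeq2), against 23.1% and 24.3% of genes tested. The median log2 fold change of the 36 IDs was 0.74 in S2A and 1.02 in S7A, and the median of all genes tested was 0.01 and −0.01. The S2A and S7A libraries lay above both WT libraries for 35 and 36 of the IDs, where 38.8% and 36.1% of all genes did so. The 36 IDs are not independent of each other. They share primary transcripts, and 34 of them were higher in WT replicate 2 than in WT replicate 1. Counts of mitochondrial IDs, here and below, are therefore not counts of separate results. The 34 IDs called in S2A were all called in S7A as well, and both comparisons use the same WT libraries. Without WT replicate 1 the calls numbered 29 in S2A and 34 in S7A, and the medians were 0.57 and 0.77. Without WT replicate 2 they numbered 33 and 36, with medians of 0.93 and 1.24. Of the calls made with all libraries, 27 of 34 in S2A and 32 of 36 in S7A were made in each of the 8 fits that left out 1 library.

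All 11 protein-coding IDs were higher in S2A (median log2 fold change 0.55) and in S7A (0.69), and the changes of 3 were near or above 1 on the log2 scale in both. Levels are given as CPM, that is, counts brought to the same library size by TMM, per gene and not per length, so that they compare strains and not genes. SPMIT.02 stood at 398 and 635 CPM in WT, 1038 and 1150 in S2A, 1153 and 1182 in S7A, and 779 and 818 in Y1F. SPMIT.03 was at 323 and 484 CPM in WT, 779 and 841 in S2A, 922 and 921 in S7A, and 499 and 525 in Y1F. For both IDs every mutant library exceeded both WT libraries, and Y1F lay between WT and the serine mutants. The log2 fold change of SPMIT.02 was 1.08 ± 0.147 (SE) in S2A (edgeR adjusted p = 5.49e-05) and 1.18 ± 0.147 in S7A (edgeR adjusted p = 5.01e-05). For SPMIT.03 it was 1.01 ± 0.128 in S2A (edgeR adjusted p = 3.13e-05) and 1.19 ± 0.128 in S7A (edgeR adjusted p = 1.62e-05). Between the fits that left out WT replicate 1 and WT replicate 2, the change ran from 0.79 to 1.46 in S2A and from 0.89 to 1.55 in S7A for SPMIT.02, and from 0.75 to 1.33 and from 0.94 to 1.51 for SPMIT.03.

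SPMIT.09 was the protein-coding ID with the fewest counts. Its levels were 2.75 and 5.08 CPM in WT, 7.44 and 7.85 in S2A, 8.27 and 8.62 in S7A, and 4.85 and 5.55 in Y1F. S2A and S7A lay above WT and Y1F, which overlapped. The change was 0.97 ± 0.221 in S2A (edgeR adjusted p = 0.00259) and 1.12 ± 0.215 in S7A (edgeR adjusted p = 0.00111). With WT replicate 1 or WT replicate 2 left out it was 0.59 or 1.47 in S2A and 0.74 or 1.62 in S7A.

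The changes of SPMIT.05 and SPMIT.10 were the smallest of the 11. SPMIT.05 was at 2105 and 2786 CPM in WT, 3115 and 2968 in S2A, 3191 and 3135 in S7A, and 2365 and 2578 in Y1F. SPMIT.10 was at 2130 and 2395 CPM in WT, 2994 and 2560 in S2A, 2852 and 3003 in S7A, and 2338 and 2494 in Y1F. Both serine mutants still lay above both WT libraries for these IDs. SPMIT.05 changed by 0.32 ± 0.101 in S2A (edgeR adjusted p = 0.0185) and by 0.37 ± 0.101 in S7A (edgeR adjusted p = 0.00959). SPMIT.10 changed by 0.30 ± 0.0808 in S2A (edgeR adjusted p = 0.00784) and by 0.37 ± 0.0808 in S7A (edgeR adjusted p = 0.00247). In S2A neither ID was called without WT replicate 1 (0.13 for SPMIT.05, 0.22 for SPMIT.10) or without S2A replicate 1 (0.28 and 0.18). In S7A the SPMIT.05 value was 0.19 without WT replicate 1 and 0.59 without WT replicate 2, and the call was lost without S7A replicate 1 (0.36).

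The other 6 protein-coding IDs changed by between these extremes. SPMIT.01 was at 4840 and 5714 CPM in WT, 7527 and 7565 in S2A, 7157 and 7154 in S7A, and 5412 and 5576 in Y1F. It was the 1 protein-coding ID with a higher mean in S2A than in S7A, with changes of 0.52 ± 0.0778 (edgeR adjusted p = 0.000127) and 0.44 ± 0.0777 (edgeR adjusted p = 0.000626). SPMIT.04 was at 2273 and 2821 CPM in WT, 3944 and 3777 in S2A, 4205 and 3986 in S7A, and 2659 and 2872 in Y1F. SPMIT.11 was at 3032 and 3663 CPM in WT, 5005 and 4831 in S2A, 5081 and 4938 in S7A, and 3546 and 3744 in Y1F. SPMIT.04 changed by 0.60 ± 0.0883 in S2A and 0.69 ± 0.0884 in S7A, and SPMIT.11 by 0.55 ± 0.0816 and 0.58 ± 0.0816. These 3 IDs were called in S2A and in S7A in every fit that left out 1 library.

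SPMIT.06 was at 5143 and 6558 CPM in WT, 7704 and 8396 in S2A, 8844 and 9016 in S7A, and 6703 and 7208 in Y1F. It changed by 0.46 ± 0.0996 in S2A, which became 0.30 without WT replicate 1, and 0.61 ± 0.0997 in S7A. SPMIT.07 was at 730 and 1118 CPM in WT, 1375 and 1320 in S2A, 1639 and 1572 in S7A, and 1101 and 1224 in Y1F. SPMIT.08 was at 280 and 452 CPM in WT, 544 and 532 in S2A, 622 and 596 in S7A, and 389 and 424 in Y1F. For SPMIT.07 and SPMIT.08 the distance between the WT libraries was larger than that from WT replicate 2 to either S2A library. SPMIT.07 changed by 0.55 ± 0.137 in S2A and 0.80 ± 0.137 in S7A, and SPMIT.08 by 0.56 ± 0.147 and 0.73 ± 0.146. Leaving out WT replicate 1 gave 0.27 and 0.53 for SPMIT.07 and 0.26 and 0.44 for SPMIT.08. Leaving out WT replicate 2 gave 0.88 for SPMIT.07 in S2A, and 0.94 and 1.12 for SPMIT.08. DESeq2 did not call SPMIT.05 or SPMIT.08 in S2A.

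**Figure D2:**
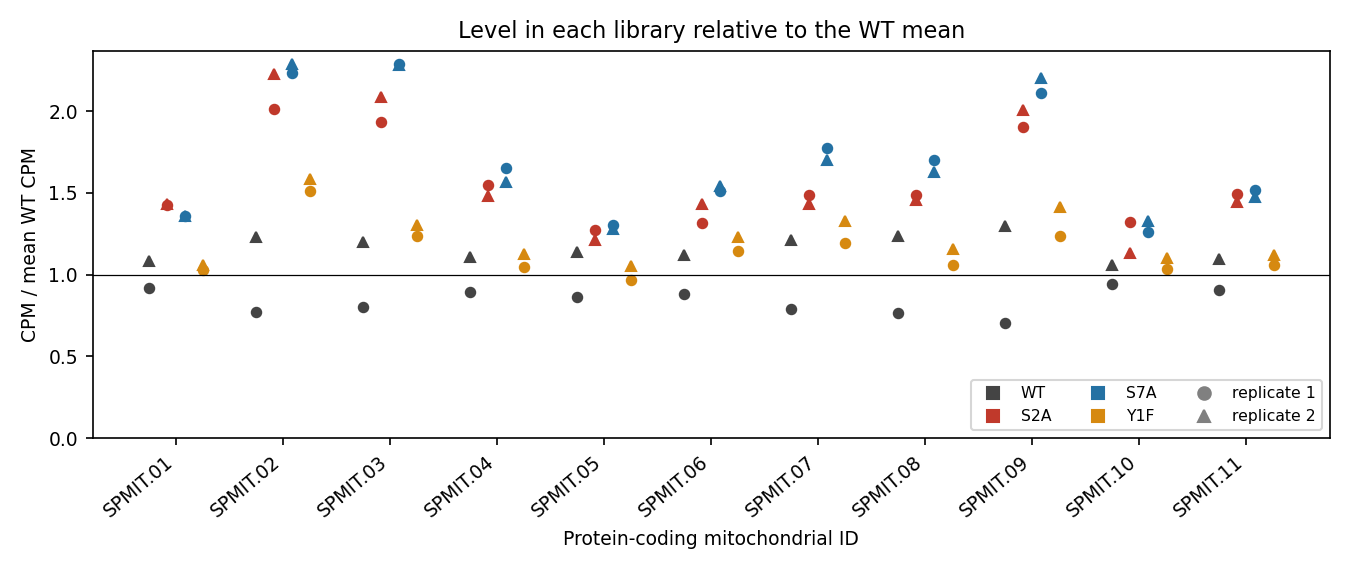
CPM of each protein-coding mitochondrial ID in each library divided by the mean of the WT libraries (circles replicate 1, triangles replicate 2, colours strains). S2A and S7A lie above both WT libraries for all 11 IDs, and WT replicate 1 lies below WT replicate 2 throughout.

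The tRNAs carry amino acids to the mitochondrial ribosome. At their IDs the counts cannot tell mature tRNAs from longer precursors that contain them. Over the 25 tRNA IDs the mean level per strain ran from 1.68 to 76.7 CPM in WT (median 9.25), from 2.25 to 134 in S2A (median 16.3), from 3.75 to 133 in S7A (median 18.6) and from 1.08 to 78.5 in Y1F (median 8.79). In S2A 23 of the 25 were called higher and 0 lower, with a median log2 fold change of 0.77. Of all genes tested, 28.8% were called higher and 26.6% lower in S2A. In S7A all 25 were called higher, with a median of 1.05, against 23.1% of all genes tested. The change reached 1 on the log2 scale for 1 tRNA ID in S2A, the glutamate tRNA, and for 17 in S7A. The share of all genes tested that reached 1 was not computed. The counts of 1 and 17 moved with the WT libraries. Without WT replicate 1 they were 1 in S2A, the asparagine tRNA in place of glutamate, and 8 in S7A. Without WT replicate 2 they were 10 and 20, and without S2A replicate 2 the S2A count was 4.

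The 5 tRNA IDs with the highest mean level were those of tyrosine, leucine (SPMITTRNALEU.02), glutamate, serine (SPMITTRNASER.02) and alanine. SPMITTRNATYR.01 was at 67.1 and 86.3 CPM in WT, 139 and 130 in S2A, 141 and 124 in S7A, and 80.3 and 76.7 in Y1F. SPMITTRNAGLU.01 was at 24.8 and 49.9 CPM in WT, 76.5 and 101 in S2A, 96.3 and 100 in S7A, and 40.3 and 40.1 in Y1F. For these tRNAs S2A and S7A overlapped, and both lay above WT and Y1F. The tyrosine tRNA changed by 0.81 ± 0.093 in S2A (edgeR adjusted p = 1.34e-05) and 0.79 ± 0.0926 in S7A (edgeR adjusted p = 3.14e-05). The glutamate tRNA had the largest change of all members in S2A, 1.25 ± 0.207 (edgeR adjusted p = 0.000271; 0.83 without WT replicate 1), and changed by 1.40 ± 0.204 in S7A.

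The alanine and serine tRNAs were ordered otherwise. SPMITTRNAALA.01 was at 20.5 and 31.5 CPM in WT, 50.7 and 47.5 in S2A, 81.4 and 80.0 in S7A, and 29.8 and 33.7 in Y1F. SPMITTRNASER.02 was at 42.1 and 47.9 CPM in WT, 75.7 and 68.2 in S2A, 111 and 100 in S7A, and 45.5 and 44.5 in Y1F. Here the S2A libraries lay between WT and S7A, without overlap with either. The alanine tRNA changed by 0.93 ± 0.133 in S2A (edgeR adjusted p = 8.78e-05) and 1.64 ± 0.127 in S7A (edgeR adjusted p = 1.02e-06). The serine tRNA changed by 0.68 ± 0.0755 in S2A (edgeR adjusted p = 1.00e-05) and 1.23 ± 0.0731 in S7A (edgeR adjusted p = 9.45e-08), the smallest adjusted p of the 36 IDs in that comparison.

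The ends of the range were held by tRNA IDs with few counts. SPMITTRNATHR.01 was at 1.70 and 1.65 CPM in WT, 2.77 and 2.17 in S2A, 5.81 and 5.78 in S7A, and 0.735 and 1.42 in Y1F. Its S7A libraries lay far above all others, and its change of 1.78 ± 0.243 (edgeR adjusted p = 9.83e-05) was the largest of the 36 in S7A. In S2A the threonine tRNA was not called (0.58 ± 0.281, edgeR adjusted p = 0.0985), although both S2A libraries exceeded both WT libraries. SPMITTRNACYS.01 was at 1.38 and 2.82 CPM in WT, 2.19 and 2.30 in S2A, 3.95 and 3.55 in S7A, and 1.18 and 2.35 in Y1F. The S2A libraries of the cysteine tRNA fell between the WT libraries, and its value was 0.10 ± 0.35 (edgeR adjusted p = 0.817; −0.33 without WT replicate 1). In S7A it was 0.84 ± 0.316 (edgeR adjusted p = 0.0442), with 0.41 without WT replicate 1 and 1.43 without WT replicate 2, and it was called in 3 of the 8 fits that left out 1 library. SPMITTRNALEU.01, at 4.13 and 5.29 CPM in WT, 6.32 and 7.11 in S2A, 6.95 and 6.75 in S7A, and 3.89 and 4.88 in Y1F, had the smallest called change of a tRNA in both mutants. It was 0.51 ± 0.182 in S2A (edgeR adjusted p = 0.0314) and 0.54 ± 0.179 in S7A (edgeR adjusted p = 0.0251), called in 5 of 8 such fits in each. The other leucine ID, SPMITTRNALEU.02, had 44.6 and 65.2 CPM in WT, 93.0 and 88.6 in S2A, 113 and 112 in S7A, and 66.8 and 73.3 in Y1F. It changed by 0.73 ± 0.117 in S2A (0.48 without WT replicate 1) and 1.03 ± 0.114 in S7A.

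**Figure D3:**
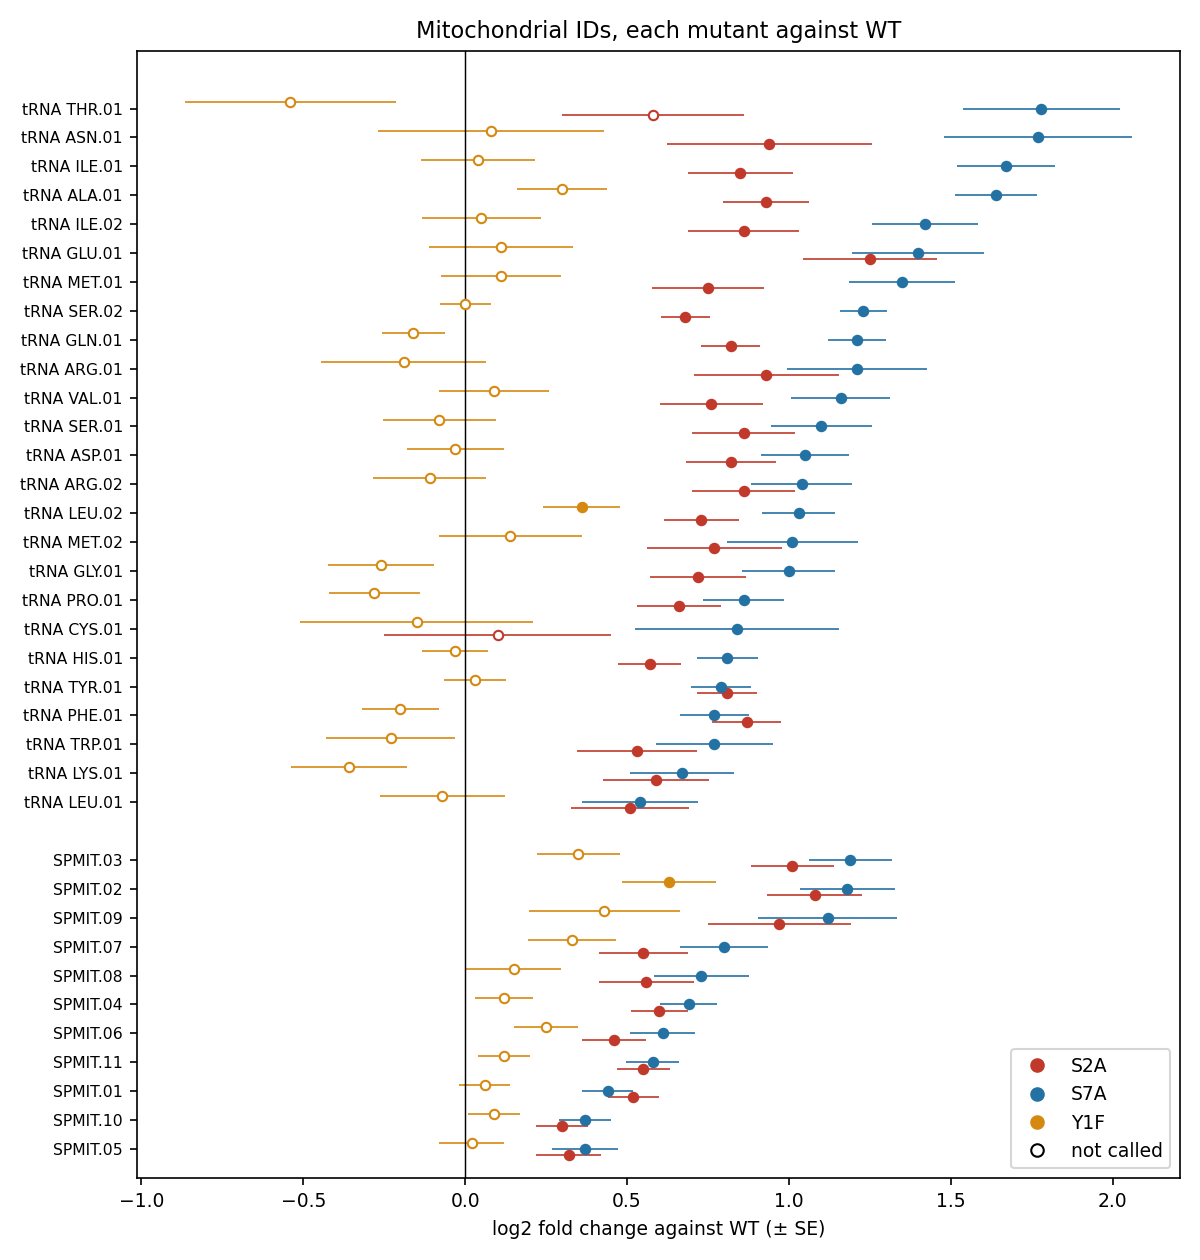
Log2 fold change against WT, with its standard error, of each mitochondrial ID in S2A, S7A and Y1F, ordered by the S7A value within the tRNA and the protein-coding IDs. Open points were not called at an adjusted p under 0.05: 2 of 36 in S2A, 0 in S7A and 34 in Y1F.

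S2A and S7A were also compared with each other, which does not use the WT libraries in the means. No ID was called higher in S2A (0 by DESeq2 and at an unadjusted p under 0.05), where 28.3% of the genes tested were called higher. Called lower were 11 of 36, or 30.6%, which lay near the 24.9% of the genes tested that were called lower. The median was −0.23 over the 36 IDs. All 11 calls were tRNAs. The median was −0.27 over the 25 tRNA IDs and −0.09 over the 11 protein-coding IDs, of which 0 were called (0 by DESeq2 and at an unadjusted p under 0.05). Both S2A libraries lay below both S7A libraries for 25 of the 36 IDs, against 38.2% of all genes. These were 8 of the 11 protein-coding IDs and 17 of the 25 tRNA IDs, so this separation was not confined to the tRNAs. Whether the tRNA IDs differed from the protein-coding IDs as a class was not tested.

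The 11 were the tRNA IDs of alanine, asparagine, glutamine, histidine, threonine and valine, both of isoleucine, and 1 each of leucine, methionine and serine. The threonine tRNA differed most, by −1.21 ± 0.217 (edgeR adjusted p = 0.000474). SPMITTRNAILE.01 was at 7.92 and 10.6 CPM in WT, 17.8 and 15.2 in S2A, 32.7 and 26.4 in S7A, and 8.60 and 10.2 in Y1F, with S2A between WT and S7A. It differed by −0.82 ± 0.134 (edgeR adjusted p = 0.000227). SPMITTRNAGLN.01 was at 29.7 and 30.7 CPM in WT, 56.8 and 49.7 in S2A, 74.3 and 65.5 in S7A, and 25 and 28.7 in Y1F. It differed by −0.38 ± 0.0813 (edgeR adjusted p = 0.00161). The alanine tRNA differed by −0.71 ± 0.115 (edgeR adjusted p = 0.000202) and SPMITTRNASER.02 by −0.55 ± 0.0682 (edgeR adjusted p = 2.53e-05). These 5 were called in each of the 8 fits that left out 1 library.

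The other 6 calls depended on single libraries. SPMITTRNAASN.01 was at 3.67 and 3.02 CPM in WT, 8.41 and 3.99 in S2A, 13.4 and 9.69 in S7A, and 3.45 and 3.59 in Y1F. Its S2A libraries lay far apart, with S2A replicate 1 close to S7A replicate 2 and S2A replicate 2 close to WT. The asparagine value was −0.83 ± 0.252 (edgeR adjusted p = 0.0144), −1.52 without S2A replicate 1 and −0.45, not called, without S2A replicate 2. Calls at SPMITTRNAHIS.01, SPMITTRNAILE.02, SPMITTRNALEU.02, SPMITTRNAMET.01 and SPMITTRNAVAL.01 were lost in 1 to 4 of the 8 fits. In all, 5 IDs were called lower in S2A without S7A replicate 1, 6 without S2A replicate 2, 16 without WT replicate 1 and 16 without WT replicate 2. In the fits without a WT library SPMIT.03, SPMIT.07 and SPMIT.08 were among the calls. SPMITTRNATYR.01, SPMITTRNAPHE.01 and SPMIT.01 had values above 0 (0.02, 0.10 and 0.08), and none of them was called.

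RefSeq's gene order was set beside these calls for the 15 tRNAs with 1 gene per amino acid. Of the 6 lower in S2A than in S7A, 5 (alanine, asparagine, glutamine, histidine and threonine) lie directly beside a gene that is not a tRNA gene, and valine lies between tRNA genes. Of the other 9, 3 (cysteine, glutamate and lysine) lie beside such a gene. Cysteine was not called at −0.74 ± 0.301, while histidine was called at −0.24 ± 0.0874, so the groups do not follow the size of the change. The calls of asparagine, histidine and valine depended on single libraries. This split was chosen after the values were seen and was not tested.

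**Figure D4:**
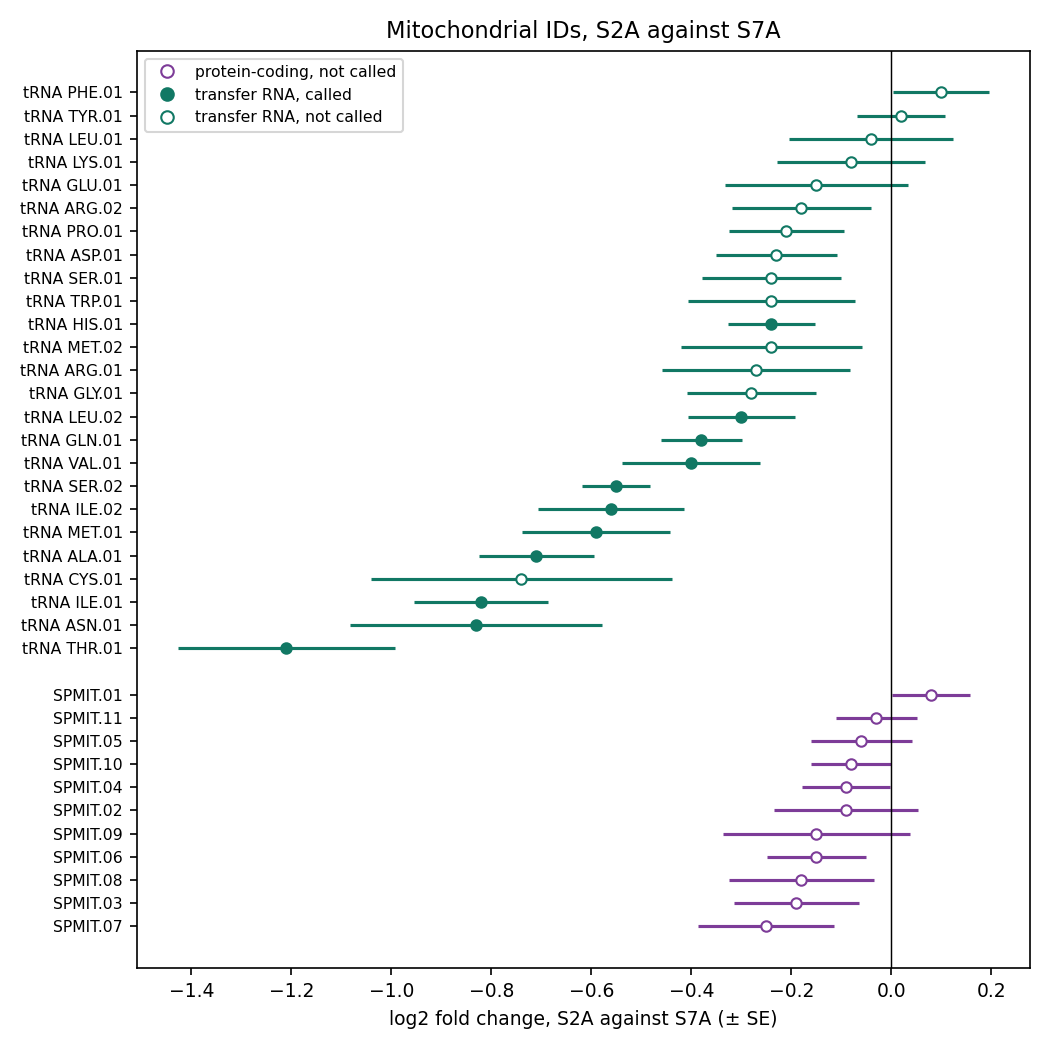
Log2 fold change of S2A against S7A, with its standard error, for each mitochondrial ID. The filled points are the 11 called tRNA IDs, from −1.21 for threonine to −0.24 for histidine, and the 11 protein-coding IDs lie between −0.25 and 0.08.

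Few mitochondrial IDs were called between Y1F and WT. Of the 36, 2 were called higher and 0 lower in Y1F, where 17.6% of genes tested were called higher and 17.4% lower. At an unadjusted p under 0.05, 6 were higher and 0 lower, and by DESeq2 1 was higher and 0 lower. The median was 0.05 over the 36 IDs, 0.15 over the protein-coding IDs and −0.03 over the tRNA IDs. Without WT replicate 1 the protein-coding median was 0.01 and the tRNA median −0.24, and without WT replicate 2 they were 0.43 and 0.12. Of the 11 protein-coding IDs, 1 was called higher with all libraries, 1 without WT replicate 1 and 10 without WT replicate 2. SPMIT.02 rose by 0.63 ± 0.146 (edgeR adjusted p = 0.00575), and its Y1F libraries lay above both WT libraries. The call was made in all 8 fits with 1 library left out, with values of 0.33 without WT replicate 1 and 1.01 without WT replicate 2. SPMITTRNALEU.02 rose by 0.36 ± 0.119 (edgeR adjusted p = 0.0334). It was called in 5 of the 8 fits, and its value was 0.10 without WT replicate 1 and 0.66 without WT replicate 2. The counts depended most on WT. Without WT replicate 1, SPMIT.02 was called higher and the proline tRNA lower, with a median of −0.15 over the 36 IDs. Without WT replicate 2, 14 were called higher, with a median of 0.20. SPMIT.03 (0.35 ± 0.127, edgeR adjusted p = 0.0525) and SPMIT.09 (0.43 ± 0.233, edgeR adjusted p = 0.17) were not called with all libraries.

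Set directly against Y1F, the serine mutants were higher at most IDs. In S2A 32 of 36 were called higher than in Y1F, against 25.1% of genes tested, and in S7A all 36, against 23% of genes tested. The medians were 0.67 and 1.00. The 4 IDs not called between S2A and Y1F were SPMIT.06 (0.21 ± 0.0994), SPMIT.07 (0.21 ± 0.136), SPMIT.10 (0.20 ± 0.0807) and SPMITTRNACYS.01 (0.25 ± 0.343). SPMIT.06, SPMIT.07 and SPMIT.10 were called in some fits that left out 1 library, and SPMIT.02, SPMIT.05, SPMIT.08 and SPMIT.09 lost their call in some. Over these fits SPMIT.02 ran from 0.38 to 0.54, SPMIT.05 from 0.24 to 0.36, SPMIT.08 from 0.34 to 0.47 and SPMIT.09 from 0.46 to 0.65. SPMIT.10 was at 0.31 without S2A replicate 2 and at 0.10 without S2A replicate 1. SPMIT.07 had its lowest value, 0.14, without Y1F replicate 1. The cysteine value had no stable direction, with −0.07 without Y1F replicate 1 and 0.92 without Y1F replicate 2. All 11 protein-coding IDs still had both S2A libraries above both Y1F libraries, as did 38.3% of all genes. The largest value of any member in any comparison was that of the threonine tRNA between S7A and Y1F, 2.32 ± 0.25 (edgeR adjusted p = 1.10e-05). In these comparisons, which do not use the WT means, the number of calls over the fits that left out 1 library ran from 24 to 35 for S2A and from 29 to 36 for S7A. Across all 4 strains together, each of the 36 IDs varied (edgeR quasi-likelihood F test, adjusted p under 0.05), as did 79.6% of genes tested.

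Within the mitochondrial counts, single IDs also took different shares in the libraries of the 4 strains. The share of mitochondrial counts at SPMIT.02 was 1.84% and 2.34% in WT, 2.98% and 3.31% in S2A, 3.15% and 3.25% in S7A, and 2.97% and 2.93% in Y1F. All 6 mutant libraries lay above both WT libraries in this share. SPMIT.03 had 1.49% and 1.78% in WT, 2.24% and 2.42% in S2A, 2.51% and 2.53% in S7A, and 1.90% and 1.88% in Y1F. The SPMIT.05 share was 9.73% and 10.3% in WT, 8.95% and 8.56% in S2A, 8.70% and 8.61% in S7A, and 9.02% and 9.23% in Y1F. SPMIT.10 likewise took a mean of 9.34% in WT against 7.99% in S2A, 8.01% in S7A and 8.92% in Y1F. The IDs with most counts, SPMIT.06 and SPMIT.01, took 24.0% and 21.7% in WT and 24.4% and 19.6% in S7A. These shares sum to a fixed total and were not tested.

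Nuclear tRNA genes, which RNA polymerase III transcribes, were also higher in the serine mutants. Of the 171 in the table, 42 passed the filter on low counts. In S2A 24 of the 42 were called higher and 0 lower (median 1.19), in S7A 30 and 0 (median 1.33), and in Y1F 2 and 0 (median 0.09). As shares of the 42, 57.1%, 71.4% and 4.76% were called higher, against 28.8%, 23.1% and 17.6% of all genes tested. Of all genes tested, 26.6%, 24.3% and 17.4% were called lower. A gene could pass the filter through its S2A and S7A counts alone, which favours calls of higher over lower among the 42. How many genes passed in that way was not examined, so the shares of the 42 may be inflated. Between S2A and S7A 0 were called higher and 2 lower (median −0.18), against 28.3% and 24.9% of all genes. The S2A count was 10 without S2A replicate 1 and 13 without WT replicate 1, and the Y1F count was 0 without either WT library. Between S2A and S7A, 5 were lower without S2A replicate 1 or without WT replicate 1. The filter let 46 to 51 of these genes through in the fits with 1 library left out. DESeq2 called 13 higher in S2A, 19 in S7A and 1 in Y1F, and 0 lower in each, as at an unadjusted p under 0.05 in edgeR. Their share of all counts had means of 0.00424% in WT and 0.00485% in Y1F, and of 0.00902% in S2A and 0.0103% in S7A, which gives ratios to WT of 2.13 for S2A, 2.43 for S7A and 1.14 for Y1F. The part of this shift in the results for the mitochondrial tRNA IDs was not tested.

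The nuclear genes that serve mitochondrial gene expression had calls in both directions. The list of mitochondrial transcription and RNA processing held 22 genes, all tested. It is wider than its name. The annotation describes cbp3 and cbp6 as assembly proteins of the respiratory chain, and ppr4, sls1 and mtf2 as translation proteins. In S2A 6 were called higher and 9 lower, in S7A 1 (cbp6, 0.31) and 10, and in Y1F 9 and 1. Over all genes tested 28.8% were called higher and 26.6% lower in S2A, 23.1% and 24.3% in S7A, and 17.6% and 17.4% in Y1F. The 9 higher in Y1F became 4 by DESeq2 and without Y1F replicate 2, and 5 without WT replicate 1. The 1 lower became 3 without S2A replicate 1 or S2A replicate 2. The median over the list was 0.03, −0.09 and 0.08. rpo41 (SPAC26H5.12), the mitochondrial RNA polymerase, was at 169 and 165 CPM in WT, 111 and 127 in S2A, 145 and 149 in S7A, and 157 and 152 in Y1F. It fell by 0.49 ± 0.056 on the log2 scale in S2A (edgeR adjusted p = 1.25e-05) and by 0.18 ± 0.0549 in S7A (edgeR adjusted p = 0.0163), and was not called in Y1F (−0.12). Its S7A call was lost without WT replicate 1 or either S7A library.

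mtf1 (SPAC1002.08c), the mitochondrial transcription factor, was at 34.2 and 41.5 CPM in WT, 49.6 and 48.8 in S2A, 38.8 and 35.3 in S7A, and 44.0 and 45.2 in Y1F. It rose by 0.38 ± 0.0836 in S2A (edgeR adjusted p = 0.002), with 0.25 without WT replicate 1, and was not called in S7A (−0.03). In Y1F it rose by 0.24 ± 0.0843 (edgeR adjusted p = 0.0427), a call lost in 6 of the 8 fits with 1 library left out (0.10 without WT replicate 1, 0.38 without WT replicate 2). The mitochondrial RNA degradation enzymes had small changes. rpm1 (SPCC1322.01), the exoribonuclease, fell by 0.28 ± 0.0567 in S2A (edgeR adjusted p = 0.00111) and had −0.01 in S7A and −0.04 in Y1F. rpm2 (SPAC637.11), the helicase also called suv3, rose by 0.23 ± 0.0479 in Y1F (edgeR adjusted p = 0.00275) and was not called in S2A (0.02) or S7A (0.05). Its S7A to Y1F difference was −0.19 (edgeR adjusted p = 0.00542).

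trz2 (SPBC3D6.03c), which encodes the mitochondrial tRNase Z that trims the 3′ ends of tRNAs, was the 1 gene of the list with a called change of at least 1.5-fold. It was at 47.1 and 45.1 CPM in WT, 28.8 and 30.8 in S2A, 22.8 and 24.3 in S7A, and 39.4 and 45.0 in Y1F. The S7A libraries were lowest, then S2A, then Y1F just below WT, and no strain overlapped another. trz2 fell by 0.63 ± 0.0784 in S2A (edgeR adjusted p = 2.50e-05) and by 0.97 ± 0.0796 in S7A (edgeR adjusted p = 1.66e-06), and the S2A to S7A difference was 0.33 ± 0.0823 (edgeR adjusted p = 0.0044). In Y1F it was not called (−0.12).

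**Figure D5:**
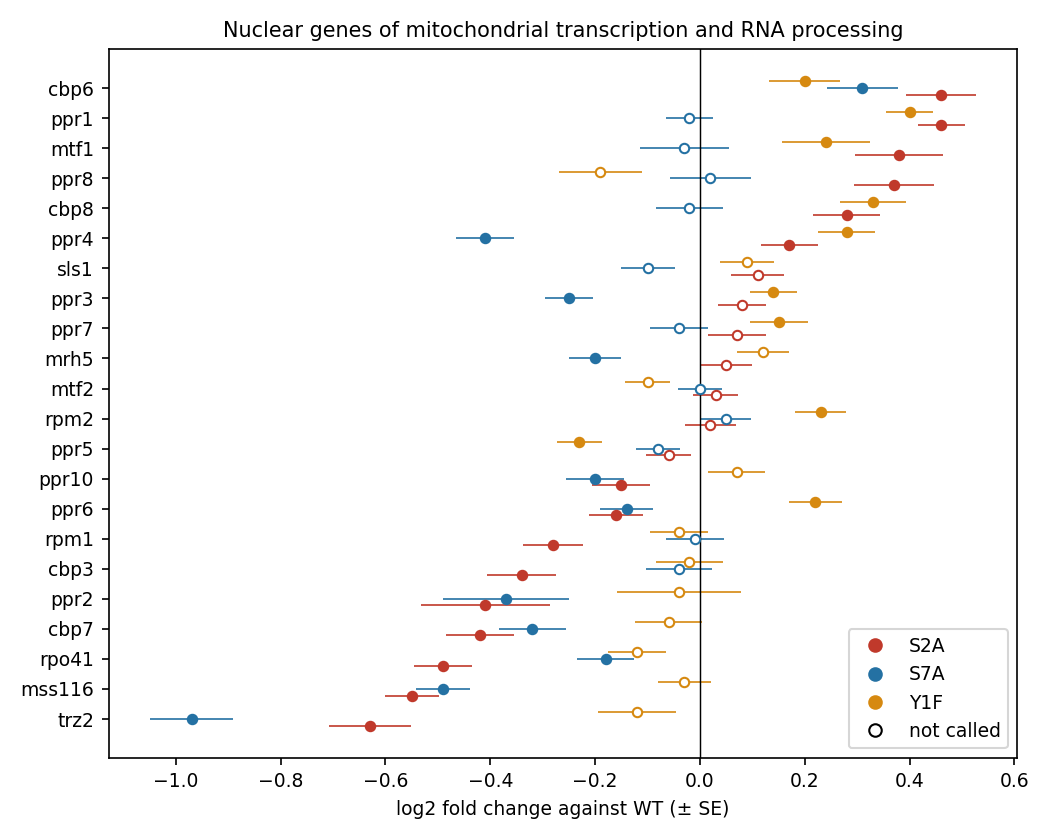
Log2 fold change against WT, with its standard error, of the 22 nuclear genes listed under mitochondrial transcription and RNA processing, some of them assembly or translation proteins. trz2 lies lowest in S2A (−0.63) and S7A (−0.97), and open points were not called.

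The list of nuclear genes of the respiratory chain and ATP synthase had more calls higher than lower. Not all of them are partners of mitochondrially encoded subunits. The list includes succinate dehydrogenase, which has no subunit among the mitochondrial genes named above, and also cytochrome c, assembly factors and an inhibitor. Of 38 tested, 17 were called higher and 1 lower in S2A, 14 and 3 in S7A, and 9 and 2 in Y1F, with medians of 0.12, 0.03 and 0.06. These are 44.7% higher and 2.63% lower in S2A, 36.8% and 7.89% in S7A, and 23.7% and 5.26% in Y1F, to be read against the shares of all genes tested given for the list before (28.8% and 26.6%, 23.1% and 24.3%, 17.6% and 17.4%). In S2A the largest called changes were those of atp11, an assembly factor of ATP synthase (0.67), inh1, the ATP synthase inhibitor (0.46), and atp10, another assembly factor (−0.56). In S7A they were tim18 (0.53) and sdh3 (0.35) of succinate dehydrogenase, cyc1, cytochrome c (−0.33), and atp11 (−0.27). In Y1F they were qcr10 of the cytochrome bc1 complex (0.35), inh1 (0.31), sdh2 of succinate dehydrogenase (−0.32) and cox8 of cytochrome c oxidase (−0.17). The Y1F calls of inh1 and cox8 were lost without Y1F replicate 2, and that of cox8 also without WT replicate 1 or either S7A library. Counts of calls in this list fell by more than 1.5 times in some fits: 11 were higher in S2A by DESeq2, 8 were higher in S7A by DESeq2 or without WT replicate 1, 7 without S7A replicate 1 or without S7A replicate 2, and in Y1F 3 were higher by DESeq2, 5 without WT replicate 1 and 2 without Y1F replicate 2.

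The proteins of the mitochondrial ribosome are also encoded in the nucleus, and 75 of the 76 genes in the table were tested. In S2A 23 were called higher and 9 lower, in S7A 29 and 4, and in Y1F 14 and 3, with medians of 0.07, 0.08 and 0.05. The higher calls were 30.7%, 38.7% and 18.7% of the 75, and in S2A and Y1F lay near the 28.8% and 17.6% of all genes tested (23.1% in S7A). The lower calls were 12%, 5.33% and 4%, where 26.6%, 24.3% and 17.4% of all genes were called lower. The largest called changes were those of mrpl24 (0.64), rsm10 (0.59), mrpl4 (−0.39) and bot1 (−0.34) in S2A. In S7A they were mrp10 (0.49), mrps12 (0.48), mrp17 (−0.42) and mrpl31 (−0.41). In Y1F they were mrpl12 (0.42), mrpl24 (0.37), mrp20 (−0.25) and fyv4 (−0.23), and the calls of mrp20 and fyv4 were lost in 5 and 4 of the 8 fits with 1 library left out, among them that without WT replicate 2 (−0.17 and −0.15). The number called higher in S7A was 15 without S7A replicate 1, and 19 without WT replicate 1 or by DESeq2. In Y1F it was 7 without WT replicate 1 and 6 without Y1F replicate 2 or by DESeq2, and none of the 3 lower calls was made by DESeq2, without S7A replicate 1 or without Y1F replicate 1. DESeq2 called 4 lower in S2A.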

How the data were processed

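The deposited values are whole-number counts of reads per gene ID and library, made by the authors. Per the submitters' processing notes, HISAT2, featureCounts, StringTie, DESeq2, deepTools and the ASM294v2 build were used, while versions, roles and strand setting are not given in the sources used. Per the labels' protocols, RNA was extracted with hot phenol, depleted of ribosomal RNA and made into stranded libraries, which were sequenced as read pairs. Totals per library were 13391705 to 23081870 counts, and no column was left out.

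For the comparisons, edgeR 4.0.16 (R 4.3.3) was run on the counts as deposited. Its filterByExpr, at a minimum count of 10 and a minimum total of 15, kept 6243 genes, which were scaled with TMM. All 8 libraries entered 1 quasi-likelihood fit by strain, with 4 residual degrees of freedom and a biological coefficient of variation of 4.44%. Genes were called at a Benjamini-Hochberg adjusted p under 0.05 over all genes tested. The SE of a log2 fold change is the change over the root of the F value. DESeq2 1.42.0 was an alternative. Shares of counts were compared with a two-sided exact permutation test. The fit and the permutation test were tested on simulated data. Python 3.11.15 was used for summaries and plots, with pandas 2.3.3, numpy 2.4.6, scipy 1.17.1 and matplotlib 3.10.9.

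Of all IDs, 6797 matched RefSeq (ASM294v3) by locus tag, but 0 of the 36 mitochondrial ones did. The members and gene lists were chosen with earlier results of these data known. All protein-coding IDs were named, and those tRNA IDs that were among the 5 highest in mean level or had the largest or smallest change in a mutant. The tRNA IDs named between S2A and S7A or for a lost call were chosen after their values were seen. The nuclear genes rpo41, mtf1, rpm1 and rpm2 were always named, as was any gene of their list called with a change of at least 1.5-fold, and up to 2 genes each way of the respiratory and ribosomal lists. From the first list par1, mrs1 and dea2 were left out because the annotation gives them as another name of rpm1 or with another function. Kept in it were cbp3, cbp6, ppr4, sls1 and mtf2, which the annotation describes as assembly or translation proteins. The libraries of each strain lay further apart than sampling noise, with a chi-square per gene of 4.82 (Y1F) to 10.7 (WT).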

Additional observations from a re-analysis of the deposited data

How the results depend on the processing

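Alternative settings were RLE scaling, scaling on nuclear protein-coding genes or without the mitochondrial IDs, and a fit of only the 2 strains compared. Further ones were all genes unfiltered and genes reaching 5 CPM in 2 libraries. In each the counts of called mitochondrial IDs kept their direction and stayed within 1.5 times of those given. No scaling moved the median of all genes by more than 0.1. Each scaling holds that median near 0 by design, so it cannot show a change of nuclear RNA as a whole. The level of 5 CPM removed 1 ID. DESeq2 called 31 higher in S2A, 34 in S7A and 1 in Y1F, and 8 lower in S2A than in S7A. Over the fits that left out 1 library, the count higher ran from 28 to 34 in S2A, 33 to 36 in S7A and 1 to 14 in Y1F, where 0 to 1 were lower, and 5 to 16 were lower in S2A than in S7A. The medians ran from 0.57 to 0.93 in S2A, 0.77 to 1.24 in S7A, −0.15 to 0.20 in Y1F, 0.66 to 0.76 for S2A against Y1F and 0.92 to 1.06 for S7A against Y1F. The cysteine tRNA in S2A ran from −0.33 without WT replicate 1 to 0.70 without WT replicate 2. The permutation p of the mitochondrial share ran from 0.019 to 0.0762 with 1 library left out, and the tRNA share alone had ratios to WT of 1.79 in S2A and 2.18 in S7A. The ratio of tRNA to protein-coding counts against WT, an alternative chosen after seeing the data, ran from 1.20 to 1.28 in S2A, 1.42 to 1.53 in S7A and 0.899 to 0.960 in Y1F.

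The replicate block raised the count of IDs higher in Y1F from 2 to 4 and moved no other count of mitochondrial IDs by over 1.5 times. Same-numbered libraries of different strains had correlations of their deviations from −0.148 to 0.133, so the numbers are not taken to pair the samples.

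For the nuclear lists DESeq2 called 11 respiratory genes higher in S2A, 8 in S7A and 3 in Y1F, with 1 lower in Y1F. It called 4 ribosomal protein genes lower in S2A, 19 higher in S7A, and 6 higher and 0 lower in Y1F, and 4 transcription and RNA processing genes higher in Y1F. With 1 library left out, respiratory genes numbered 1 to 2 lower in S2A, 7 to 14 higher in S7A, and 2 to 9 higher and 1 to 3 lower in Y1F. Ribosomal protein genes numbered 15 to 32 higher in S7A, and 6 to 17 higher and 0 to 3 lower in Y1F. Transcription and RNA processing genes numbered 4 to 8 higher and 1 to 3 lower in Y1F. The causes were not tested. Levels per length were not computed, since the lengths of the protein-coding IDs were not used here. At the tRNA IDs, counts of 10 to 2855 per library limit the precision.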
